A study of Mus musculus with 3 samples.

Results

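The Schlafen genes Slfn1, Slfn2, Slfn3, Slfn4, Slfn5, Slfn8 and Slfn9 were followed across blood cells of young, aged and glycyrrhizic acid-treated aged mice. They were taken by symbol from the deposited list of 32285 genes, and 7 of 7 were found in each library. Peripheral blood mononuclear cells (PBMCs) were profiled by droplet-based 3' single-cell RNA sequencing, with 1 library from female C57BL/6 mice of 8 weeks (young), 1 from female C57BL/6 mice of 16 months (aged) and 1 from female C57BL/6 mice of 16 months given glycyrrhizic acid (GA), a saponin of licorice root, for 1 month by injection into the tail vein (aged-GA). The young mice were purchased and the aged mice came from laboratory stock, so age and source cannot be told apart, and each library stands for several mice of its group, whose cells cannot be told apart in it and are not replicates. Each group is 1 library, so group and library cannot be told apart and there is no test; every interval below is a 95% interval of counting error alone.

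Schlafen genes encode a family of proteins of immune cells that is found in mammals and is divided into short, intermediate and long members by the length of the protein. Several of them are induced by type I interferon, members of the family bind and cleave transfer RNA, and the long members carry an additional region that resembles a helicase. Slfn2 is known above all for keeping T cells and monocytes quiescent, since mice with a mutated Slfn2 lose both kinds of cells and are prone to infection. Slfn1, the founding member, was described in thymocytes, where its forced expression slows growth, and Slfn4 is known as an interferon-induced gene of myeloid cells.

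The members lie side by side on chromosome 11 of GRCm38, between 82951349 and 83215154 (263.806 kb), in the order Slfn5, Slfn9, Slfn8, Slfn2, Slfn1, Slfn4 and Slfn3. By the annotation their coding length was 1011 bases for Slfn1 and 1134 for Slfn2, the short members, 1920 for Slfn3 and 1806 for Slfn4, the intermediate members, and 2652 for Slfn5 and 2730 each for Slfn8 and Slfn9, the long members. Some of these genes are close copies: the transcripts of Slfn8 and Slfn9 shared 357 runs of 50 bases and those of Slfn3 and Slfn4 shared 252, but in the last 500 bases, which a 3' assay reads most, no pair of members shared a run of that length. Slfn5 overlaps an annotated antisense gene, Slfn5os, which had no UMI in any gated class.

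The windows from 250 bases before to 50 bases after each RefSeq start (RefSeq, GRCm38.p6) were searched on both strands for short motifs. Slfn1, Slfn2 and Slfn4, whose levels were highest in neutrophils in each library (below), shared a run of 11 bases upstream of the start, the longest run common to these 3 windows. It is shown in capitals, each line in the strand of its gene, so that the flanking bases can be compared.
Slfn1, chr11:83116722-83116781, plus strand: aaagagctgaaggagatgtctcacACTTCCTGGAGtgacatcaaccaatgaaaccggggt
Slfn2, chr11:83065033-83065092, plus strand: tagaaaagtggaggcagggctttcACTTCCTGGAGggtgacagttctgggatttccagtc
Slfn4, chr11:83175089-83175148, plus strand: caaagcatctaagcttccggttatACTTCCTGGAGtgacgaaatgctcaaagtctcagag
The run was chosen for being shared, so its count elsewhere is a description: of the 32851 windows of all genes, 24 (0.0731%) held it on either strand. It contains a match to the ETS core AGGAAGT, which was found in 4 of 7 members (Slfn1, Slfn2, Slfn3 and Slfn4) and in 9.35% of all windows. The members are related by descent, so their windows are not independent of one another.

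An interferon response element core, a pair of GAAA half-sites 2 bases apart, was found in 3 of 7 members (Slfn5, Slfn8 and Slfn9) and in 3.44% of all windows. In Slfn9 and Slfn8 it stood on the opposite strand of the gene, so that the capitals below are its reverse complement, and the windows of this pair were 80.5% identical.
Slfn9, chr11:82991841-82991900, minus strand: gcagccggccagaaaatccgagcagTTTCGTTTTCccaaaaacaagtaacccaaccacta
Slfn8, chr11:83020824-83020883, minus strand: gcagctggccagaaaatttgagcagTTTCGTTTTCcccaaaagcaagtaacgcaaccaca
The GAS element, TTC and GAA with 3 bases between them, held by 8.30% of all windows, was in 0 of 7. A match is a stretch of letters and not a measured binding site.

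After filtering, 8851 young, 10238 aged and 12648 aged-GA cells were kept, with a median of 4671, 3810.5 and 4752 UMIs (unique molecular identifiers, tags by which each captured RNA molecule is counted once). Cells were put into classes by at least 2 detected markers of the class and at most 1 of each other class, none of them a Schlafen gene. This gave 5288, 2143 and 3421 T cells in young, aged and aged-GA mice, 2287, 4349 and 5656 B cells, 324, 271 and 268 NK cells, 57, 1022 and 281 monocytes and 12, 842 and 537 neutrophils. Since the gates were set by the markers, marker levels describe the gates and do not test their labels. In CPM (UMIs of a gene scaled to 1000000 UMIs of the same cells), Ncr1 was at 561 to 818 in NK cells. It was at most 1.65 CPM in every other class. Some markers were less confined: Klre1, an NK marker, was at 41.5 and 43.3 CPM in aged and aged-GA T cells. Csf3r, a neutrophil marker, was at 73.1 to 79.7 CPM in monocytes. The young library says little of neutrophils and of classical monocytes, of which it held 12 and 2. RNA of other cells differed between libraries: the summed level of 7 neutrophil or monocyte genes in T cells was 90.6, 490 and 302 CPM in the young, aged and aged-GA libraries, with none of the 7 at 0, and haemoglobin took 2.76, 7.88 and 6.87% of T cell UMIs. The median mitochondrial share of barcodes was 5.06, 1.86 and 3.79%, and the libraries shared 50 to 62 cell barcodes in pairs.

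**Figure D1:**
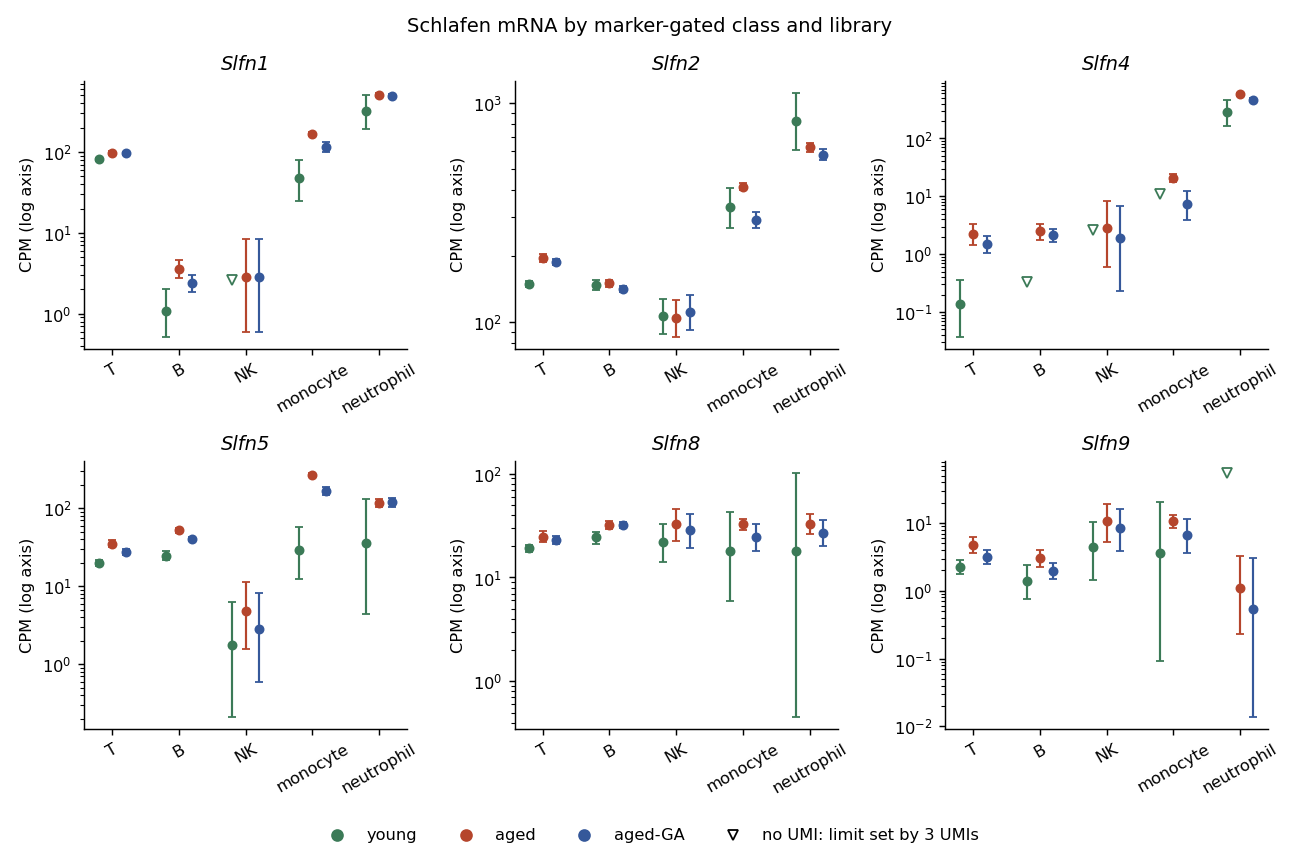
Level of 6 Schlafen genes in marker-gated classes (x axis) as CPM on a log axis, 1 panel per gene; each point is the summed UMIs of a class in 1 library (green young, red aged, blue aged-GA), bars are exact Poisson 95% intervals, and open triangles mark the level of 3 UMIs where no UMI was found. Slfn1, Slfn2 and Slfn4 are highest in neutrophils in all 3 libraries, while Slfn8 lies in a narrow band between 18.0 and 32.9 CPM in all classes.

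Slfn2, the quiescence gene, was found in every class. T cells of the young, aged and aged-GA libraries had 149, 196 and 187 CPM and B cells 148, 150 and 141 CPM. It was lowest in NK cells, at 106, 105 and 111 CPM, and higher in monocytes, at 333, 415 and 291 CPM. Neutrophils stood above all other classes, with 828, 626 and 580 CPM. The order neutrophil, monocyte, T, B, NK was found in the means of the 3 libraries, and each neighbouring pair kept its order in 3 of 3 libraries, the B cell and T cell levels of the young library being nearly equal. The smallest step, from T to B cells, was 0.27 ± 0.22 on the log2(CPM + 1) scale (mean ± SD over the 3 libraries, which belong to different groups).

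Slfn1 divided the lymphocytes. T cells of the young, aged and aged-GA libraries had 81.0, 96.8 and 96.7 CPM, whereas B cells had 1.1, 3.6 and 2.4 CPM. The T cell level was above the B cell level by 5.44 ± 0.73 on the log2 scale (mean ± SD, 3 libraries). NK cells had no UMI in young mice, with an interval of up to 3.2 CPM, and 3 UMIs each in aged and aged-GA mice (2.9 and 2.8 CPM). Monocytes had 47.1, 168 and 116 CPM and neutrophils 324, 506 and 494 CPM. Monocytes and T cells exchanged places between libraries (difference 0.09 ± 0.79), so their order is not resolved.

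Slfn4 was a neutrophil transcript. Neutrophils of the young, aged and aged-GA libraries had 288, 577 and 463 CPM. Monocytes held 166 UMIs (20.96 CPM) in the aged and 14 (7.3 CPM) in the aged-GA library and none in the young. In lymphocytes it was at 0.1 to 2.9 CPM, or at 0 in young B and NK cells. Red cell barcodes, which should lack the gene, had 26.9 CPM (18.3 to 38.2) in the aged library when haemoglobin UMIs were left out. Aged T cells had 2.4 and aged B cells 2.8 CPM on this measure, below the CPM of these barcodes. Aged monocytes were at 22.3 CPM (19.0 to 26.0) on the same measure, which does not exceed the CPM of the red cell barcodes. The denominators were unlike, with a mean of 211 UMIs outside haemoglobin per aged red cell barcode and 7284 per aged monocyte. The mean was 4854 per aged T cell and 3530 per aged B cell. In counts, 5460 red cell barcodes held 31 Slfn4 UMIs and 1022 aged monocytes held 166. Among lymphocytes, 2143 aged T cells held 25 and 4349 aged B cells held 43. The CPM of these barcodes therefore does not give the amount of free RNA in a cell. Per 1000 UMIs of S100a8, an abundant neutrophil gene, aged T cells held 32.9 Slfn4 UMIs (21.2 to 48.9), aged B cells 28.3 (20.4 to 38.3), red cell barcodes 20.8 (14.1 to 29.7), monocytes 174 (147 to 205) and neutrophils 6.29 (5.98 to 6.61). The ratio in lymphocytes was thus near that of red cell barcodes and above that of neutrophils, and the part of free RNA in it was not tested.

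Slfn5, a long member, was highest in the monocytes of aged and aged-GA mice. In young mice the highest class was not resolved, as neutrophils held 2 UMIs and monocytes 8. The young log2 ratio of monocytes over neutrophils was -0.31 (-2.64 to 2.96). Young, aged and aged-GA monocytes had 29.0, 267 and 167 CPM and neutrophils 36.0, 117 and 120 CPM. B cells had 24.7, 51.9 and 40.3 CPM and T cells 20.0, 35.2 and 27.3 CPM. B cells were above T cells in 3 of 3 libraries, by 0.46 ± 0.14 (log2(CPM + 1) scale). NK cells held 2, 5 and 3 UMIs, or 1.8 to 4.8 CPM, which was 2.82 ± 0.15 below T cells on the same scale.

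Slfn8 was the most even member. Its level was 19.1, 24.7 and 23.0 CPM in T cells, 24.3, 32.1 and 32.1 in B cells and 22.0, 32.7 and 28.5 in NK cells of young, aged and aged-GA mice. Monocytes had 18.1, 32.5 and 24.4 CPM and neutrophils 18.0, 32.9 and 26.9 CPM. No pair of classes next to each other in mean level kept its order in all 3 libraries. T cells were below B cells in 3 of 3 libraries, at log2 ratios of -0.35, -0.38 and -0.48, with each counting interval below 0. The young monocyte and neutrophil levels rest on 5 and 1 UMIs, and the neutrophil interval reached from 0.46 to 100 CPM.

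Slfn9, its close relative, was scarce, with 437 UMIs over all gated cells. It was highest in NK cells and monocytes (4.4, 10.6 and 8.5 CPM, and 3.6, 10.6 and 6.7 CPM), which were not resolved from each other. T cells had 2.3, 4.8 and 3.2 CPM, B cells 1.4, 3.0 and 2.0 CPM, and neutrophils 3 UMIs in aged and 1 in aged-GA mice. Slfn3 had 94 UMIs over all gated cells, under the minimum of 100 set for comparison, and at most 2.4 CPM in any class.

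To set shares of cells side by side at equal depth, each cell was thinned to 1000 UMIs, which left out 0 to 29 shallower cells of a class and library. In aged mice, 42.8% of neutrophils held a Slfn1 UMI (39.4 to 46.3), 50.2% a Slfn2 UMI (46.7 to 53.7) and 36.3% a Slfn4 UMI (33.0 to 39.7). In aged-GA mice the shares were 42.1, 49.4 and 30.7%. Slfn1 was found in 8.04, 9.81 and 9.36% of young, aged and aged-GA T cells, against 0.044, 0.30 and 0.27% of B cells. These shares have no reference in red cell barcodes at equal depth, since haemoglobin took most of their UMIs: in the aged library their median was 195 UMIs outside haemoglobin, against 4456 in T and 3037 in B cells. Levels over the UMIs outside haemoglobin were therefore set beside each other. Slfn1 was at 29.5 CPM in aged red cell barcodes (20.4 to 41.2), at 105 in T and at 4.0 in B cells, and Slfn2 at 57.3 CPM (44.3 to 72.9), 213 and 170. In counts, 5460 aged red cell barcodes held 34 Slfn1 UMIs and 4349 aged B cells held 62. The part of free RNA in the Slfn1 UMIs of B cells was not tested, so they are not read as expression. Of the 105 levels of a member in a class and library, 52 lay above the level in red cell barcodes with intervals apart. Those barcodes held few UMIs outside haemoglobin, so their CPM does not give the amount of free RNA in a cell.

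Finer gates showed where in a class a member was found. Among T cells, Slfn5 was higher in CD4+ than in CD8+ cells in each library. Naive CD4+ T cells had 24.7, 42.9 and 69.0 CPM in young, aged and aged-GA mice, and naive CD8+ T cells 10.5, 14.3 and 21.6 CPM, differences of 1.24, 1.59 and 1.68 on the log2 scale. The counting interval of the aged difference reached from -0.06 to 3.93, and those of the other libraries lay above 0. Memory CD4+ T cells had 49.5, 73.7 and 41.8 CPM and memory CD8+ T cells 3.3, 7.4 and 12.7 CPM, a difference of 2.98 ± 1.13. The young memory values rest on 5 and 1 UMIs. Slfn1 was also higher in CD4+ cells in 3 of 3 libraries, by 0.64 ± 0.63 in naive and 0.77 ± 0.15 in memory cells. The naive difference of the aged-GA library was only 0.06 (-0.37 to 0.50). The memory difference of the young library was 0.88 (-0.60 to 2.26), and the other Slfn1 intervals lay above 0.

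Among monocytes of aged and aged-GA mice, Slfn1 and Slfn5 differed most between the classical, Ly6C-high gate and the nonclassical gate, of the members with UMIs in both. In aged mice classical monocytes had 225 CPM of Slfn1 and 362 of Slfn5, and nonclassical monocytes 28.7 and 35.1. In aged-GA mice the values were 206 and 294 CPM against 18.1 and 31.7. Slfn2 differed less, at 484 against 252 CPM in aged and 358 against 219 in aged-GA mice. On the log2 scale Slfn5 was 3.37 higher in classical cells of the aged and 3.21 higher in those of the aged-GA library. Slfn4, Slfn8 and Slfn9 were higher in classical cells as well. Their aged ratios were 2.62 (1.70 to 3.71), 1.47 (0.93 to 2.07) and 1.10 (0.24 to 2.08). In aged-GA mice they were 1.01 (-0.83 to 3.16), 0.61 (-0.30 to 1.57) and 2.30 (0.10 to 5.52). Among neutrophils of the aged and aged-GA libraries, the mature gate had more Slfn1 (593 against 338 CPM, and 605 against 280), and more Slfn2 (685 against 512, and 697 against 355), than the immature gate.

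**Figure D2:**
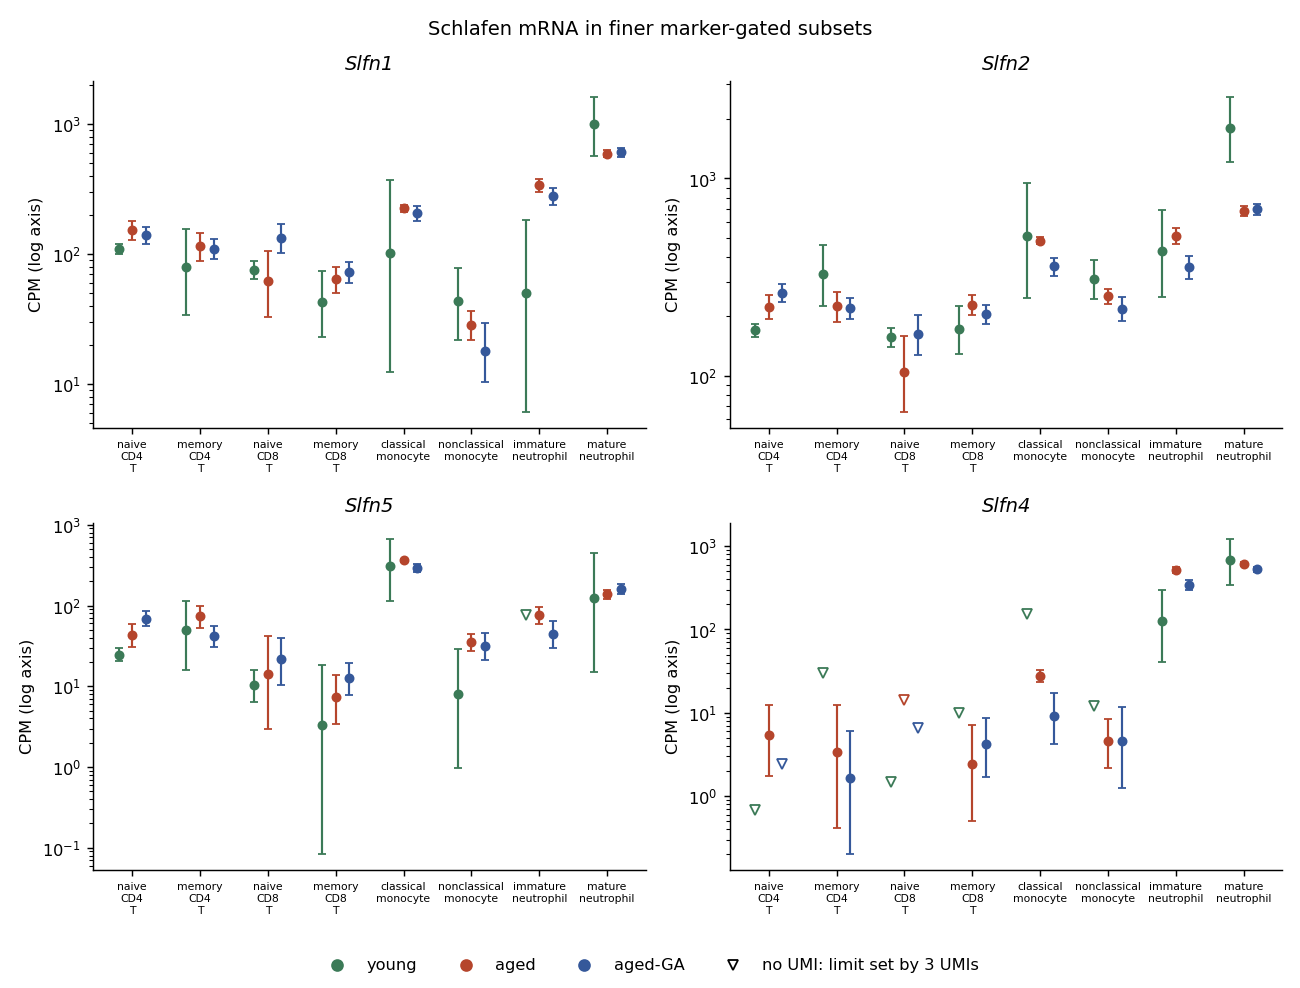
Level of Slfn1, Slfn2, Slfn5 and Slfn4 in finer gates (x axis) as CPM on a log axis; points are summed UMIs of 1 library (green young, red aged, blue aged-GA), bars exact Poisson 95% intervals, and open triangles the level of 3 UMIs where none was found. Slfn5 is higher in CD4+ than CD8+ T cells, and Slfn1 and Slfn5 are higher in classical than nonclassical monocytes, in each library; the young classical monocytes were 2 cells.

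In the 5 classes, aged over young, no member was lower by 2-fold or more, and 6 of the 18 member and class pairs with at least 100 UMIs over both libraries, of 35 in all, were higher by 2-fold or more. These were Slfn9 in T cells, Slfn5 in B cells, monocytes and neutrophils, Slfn1 in monocytes and Slfn4 in neutrophils. The counting interval lay above 0 for 12 of the 18 and below 0 for none. By class these were 5 of 5 members in T cells, where 57% of all genes counted had an interval above 0, 2 of 3 in B cells (42.3% of all genes), 0 of 1 in NK cells (16.8%), 4 of 5 in monocytes (11.5%) and 1 of 4 in neutrophils (7.65%). In T cells Slfn1, Slfn2 and Slfn8 lay at percentiles 45.3, 57.3 and 55.5 of all genes, and Slfn5 and Slfn9 at 85.1 and 92.5. The deeper a gene is counted, the narrower its interval, and members and all genes were not matched for depth. Many genes passed 2-fold as well: 8.93% of all genes counted in T cells, 4.17% in B cells, 1.52% in NK cells, 11.8% in monocytes and 18.3% in neutrophils were higher by 2-fold or more, and 1.43, 1.1, 1.09, 5.74 and 8.71% were lower. The median log2 ratio of all genes was 0.31 in T cells, 0.18 in B cells and 0.11 in neutrophils, and near 0 in NK cells and monocytes (0.01 and 0.02).

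In B cells Slfn5 had the highest ratio of the 3 members that reached the minimum of UMIs. Its log2 ratio, aged over young, was 1.07 (0.86 to 1.29; 903 and 227 UMIs), or 0.89 relative to the median gene, which is under 2-fold. Slfn2 was at 0.02 (-0.08 to 0.11) and Slfn8 at 0.40 (0.17 to 0.63) in the same cells. Below the minimum, Slfn9 was at 1.11 (0.21 to 2.10, 53 and 13 UMIs) and Slfn1 at 1.71 (0.74 to 2.84, 62 and 10 UMIs). Slfn4, with 43 aged and 0 young UMIs, was at 2.92 with the young 0 set to 3 UMIs (lower limit 2.56). Over UMIs outside haemoglobin, the Slfn1 and Slfn4 CPM of aged B cells lay below those of aged red cell barcodes. These barcodes held a mean of 211 such UMIs, against 3530 per aged B cell, so CPM do not compare free RNA per cell. In counts, 5460 aged red cell barcodes held 34 Slfn1 and 31 Slfn4 UMIs, and 4349 aged B cells held 62 and 43. The part of free RNA in these ratios was not tested. Lyz2, a monocyte gene, had 1.6 CPM in B cells of the young and 117 CPM in those of the aged library. Per 1000 UMIs of Lyz2 the aged B cells held 444 Slfn5 UMIs (410 to 480), against 14.5 (13.9 to 15.2) in aged monocytes and 17.4 (11.7 to 25.0) in red cell barcodes.

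In T cells Slfn5 and Slfn9 had the highest ratios of the 5 members counted. Slfn5 was higher in aged cells by 0.82 (0.63 to 1.00) and Slfn9 by 1.07 (0.53 to 1.61), on 54 and 66 UMIs, which are 0.51 and 0.76 relative to the median gene. Slfn1, Slfn2 and Slfn8 had ratios of 0.26, 0.39 and 0.37, which are -0.05, 0.08 and 0.06 relative to the median gene. In the naive CD4+ gate, which holds 193 aged cells, Slfn5 was at 0.79 (0.23 to 1.33). Aged T cells held 380 Slfn5 UMIs per 1000 of Lyz2 (338 to 427), as in B cells far above the ratio in monocytes. Over UMIs outside haemoglobin, Slfn5 was at 38.3 CPM (34.6 to 42.2) in aged T cells and 58.8 (55.0 to 62.8) in aged B cells. Aged red cell barcodes were at 26.0 CPM (17.6 to 37.2), which overlaps the interval of T cells and not that of B cells. These barcodes held a mean of 211 UMIs outside haemoglobin, against 4854 per aged T cell, so CPM do not compare free RNA per cell. In counts, 5460 aged red cell barcodes held 30 Slfn5 UMIs and 2143 aged T cells held 398. Young red cell barcodes had no Slfn5 UMI. The part of free RNA in the T cell ratio was not tested.

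In monocytes the ratios were large but rested on few young cells of mostly one kind. Slfn5 was higher in aged monocytes by 3.21 (2.22 to 4.42) and Slfn1 by 1.84 (1.06 to 2.75), on 8 and 13 young UMIs. Slfn4, with 166 UMIs in aged and 0 in young monocytes, had a log2 ratio of 0.95 with the young count set to 3 UMIs (lower limit 0.63). As CPM outside haemoglobin, the aged monocyte level of Slfn4 was not above that of aged red cell barcodes, which held fewer such UMIs each. Of the 57 young monocytes 53 were nonclassical, against 450 of 1022 in aged mice, so the mix of cells moved with the ratio. Within nonclassical monocytes Slfn5 was at 35.1 CPM in aged and 8.0 in young mice, on 77 and 2 UMIs, and Slfn1 at 28.7 and 43.8 CPM, on 63 and 11 UMIs; none of these reached the minimum of 100 UMIs. Slfn2, which did, was at -0.30 (-0.64 to 0.06) within nonclassical monocytes and at 0.32 (0.02 to 0.63) in all monocytes.

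In neutrophils the 12 young cells limited every ratio. Slfn4 was higher in aged cells by 1.00 (0.30 to 1.81), on 16 young UMIs, and by 0.34 when each cell was scaled to its own total. Slfn5 was higher by 1.70 (-0.17 to 4.75), on 2 young UMIs, and by 0.05 when cells with any marker of another class were left out. Slfn2 was at -0.40 (-0.83 to 0.05) and Slfn1 at 0.64 (-0.02 to 1.40). Immature cells gave 39501 of 55543 young neutrophil UMIs and 922179 of 2703346 aged ones, so the mix of cells moved with the ratios. Within mature neutrophils (7 young cells) Slfn4 was at -0.17 (-1.02 to 0.83), Slfn5 at 0.15 (-1.72 to 3.20) and Slfn1 at -0.75 (-1.46 to 0.06). Within immature neutrophils (5 young cells) Slfn4 was at 2.04 (0.80 to 3.67) and Slfn1 at 2.74 (0.88 to 5.79).

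**Figure D3:**
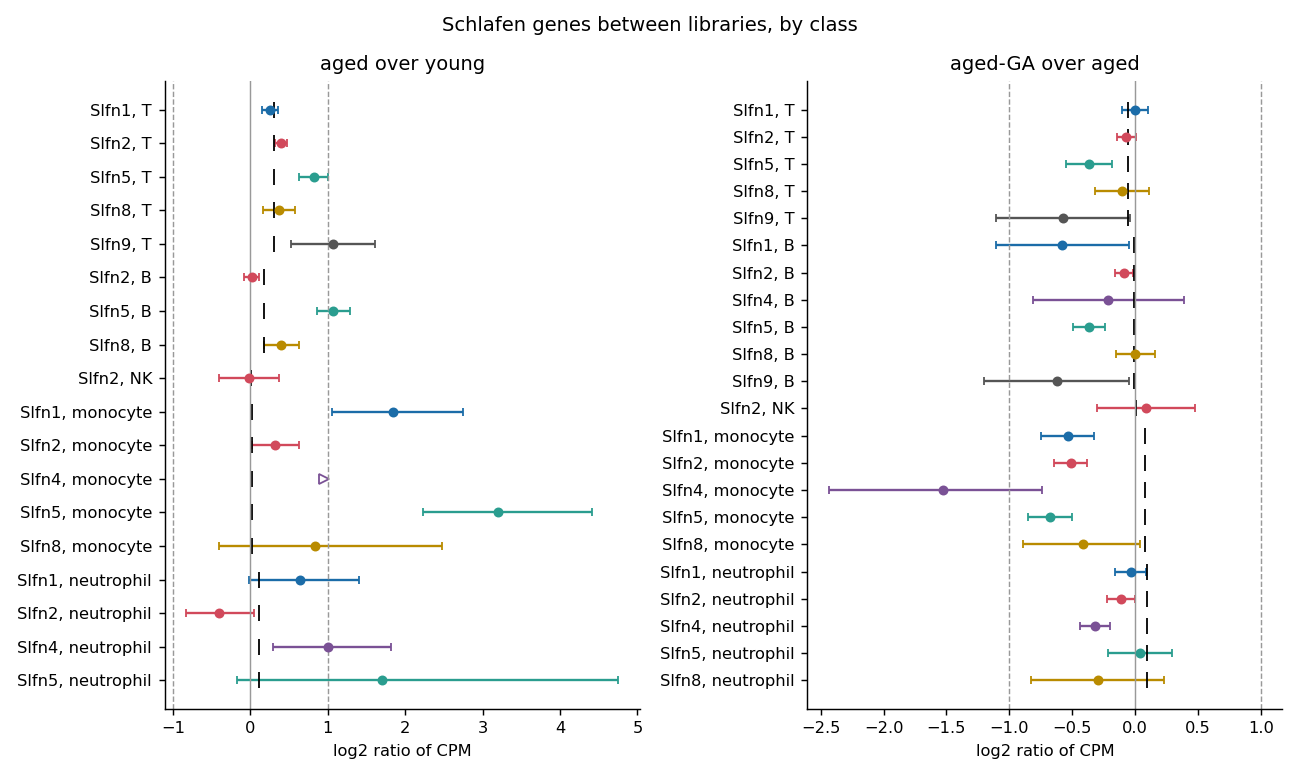
Log2 ratio of CPM (x axis) for each member and class with at least 100 UMIs over both libraries. Points are ratios, bars exact 95% counting intervals, black ticks the median ratio of all genes in that class and dashed lines 2-fold. The open triangle is a ratio with the young count of 0 set to 3 UMIs. On the left, aged over young, Slfn5 in monocytes lies farthest from 0, at 3.21; on the right, aged-GA over aged, Slfn4 in monocytes lies farthest, at -1.53.

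In aged-GA over aged cells, 1 of 22 pairs passed 2-fold. This was Slfn4 in monocytes, at 7.3 against 20.96 CPM, a log2 ratio of -1.53 (-2.43 to -0.74; 14 and 166 UMIs); 0.791% of all genes counted in monocytes were lower by 2-fold or more, against 0.514% in T cells, 0.36% in B cells, 0.331% in NK cells and 0.483% in neutrophils. When each cell was given to the class with most markers instead, the ratio was 0.13, whereas within the classical gate it was -1.62 (-2.77 to -0.65; 9 and 154 UMIs), so the call depends on how cells with markers of several classes are gated. Over UMIs outside haemoglobin, Slfn4 was at 22.3 CPM (19.0 to 26.0) in aged and 7.65 (4.18 to 12.8) in aged-GA monocytes. Red cell barcodes were at 26.9 (18.3 to 38.2) and 22.3 CPM (13.8 to 34.1), so neither monocyte CPM lay above theirs. The mean of UMIs outside haemoglobin was 211 and 247 per red cell barcode, against 7284 and 6509 per monocyte. These CPM therefore do not compare free RNA per cell. The part of free RNA in this ratio was not tested. No member was higher by 2-fold, where the shares of all genes were 0.139% in T cells, 0.144% in B cells, 0.0662% in NK cells, 0.621% in monocytes and 0.738% in neutrophils. The counting interval lay below 0 for 11 of the 22 pairs and above 0 for none. By class these were 2 of 5 members in T cells, where 23.5% of all genes counted had an interval below 0, 4 of 6 in B cells (19% of all genes), 0 of 1 in NK cells (9.74%), 4 of 5 in monocytes (11.1%) and 1 of 5 in neutrophils (6.67%). The median log2 ratio of all genes was -0.06 in T cells, -0.01 in B cells, 0.01 in NK cells, 0.08 in monocytes and 0.10 in neutrophils.

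In lymphocytes the ratios of the counted members lay between -0.62 and 0.08. Slfn5 was at -0.37 in T cells (-0.55 to -0.18) and at -0.37 in B cells (-0.49 to -0.24), which are -0.31 and -0.35 relative to the median gene. Slfn9 was at -0.58 in T cells and -0.62 in B cells and Slfn1 at -0.58 in B cells (-1.10 to -0.05), each on fewer than 100 UMIs per library. The Slfn1 UMIs of B cells, not read as expression above, are also behind 1 of the 4 of 6 B cell members with an interval below 0. Slfn1 and Slfn2 in T cells were at 0.00 (-0.11 to 0.10) and -0.07 (-0.14 to 0.01), and Slfn8 in B cells was at 0.00 (-0.15 to 0.16). RNA of other cells differed between these libraries too. The 7 neutrophil or monocyte genes summed to 490 and 302 CPM in aged and aged-GA T cells, and to 749 and 492 in B cells. In T cells 4 B cell genes went the other way, at 413 and 482 CPM. The part of free RNA in these lymphocyte ratios was not tested. In neutrophils Slfn4 was at -0.32 (-0.44 to -0.20) and Slfn5 at 0.04 (-0.22 to 0.29).

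In monocytes Slfn5 was lower in aged-GA cells by a log2 ratio of -0.67 (-0.85 to -0.51), Slfn1 at -0.54 (-0.75 to -0.33) and Slfn2 at -0.51 (-0.64 to -0.38). Classical cells were 104 of 281 gated monocytes in the aged-GA and 549 of 1022 in the aged library. Within classical monocytes the ratios were -0.30 (-0.48 to -0.12) for Slfn5, -0.13 (-0.35 to 0.09) for Slfn1 and -0.43 (-0.60 to -0.27) for Slfn2. Within nonclassical monocytes Slfn5 was at -0.15 (-0.83 to 0.49). The classical gate itself differed between libraries. Its summed level of 4 dendritic cell genes was 49.6 CPM in aged and 176 in aged-GA mice, although Flt3, one of them, was at 34.0 and 35.5. For 4 B cell genes, Cd74 among them, the sums were 1040 and 3588 CPM.

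Interferon-stimulated genes were measured beside the members, as a list of 40 genes of which 39 were in the files. In aged over young T cells 6 of 37 counted genes were higher by 2-fold and none lower, with a median of 0.65 against 0.31 for all genes. Ifi27l2a, an abundant interferon-stimulated gene, was at 1294 CPM in aged and 624 in young T cells, and Oas1a, an enzyme that senses double-stranded RNA, at 14.9 and 4.1 CPM. In B cells 0 of 33 were higher or lower by 2-fold (median 0.31, all genes 0.18), in NK cells 1 of 12 was higher (0.15, all genes 0.01), in monocytes 17 of 37 were higher (0.92, all genes 0.02) and in neutrophils 10 of 20 were higher and 2 lower (1.13, all genes 0.11). Within nonclassical monocytes 1 of 13 was higher, with a median of 0.17. Within mature neutrophils, of which the young library held 7, 2 of 18 were higher and 6 lower (median -0.15, all genes -0.42). Within immature neutrophils, of which it held 5, 4 of 9 were higher and 0 lower (0.95, all genes 0.07).

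In aged-GA over aged cells the median of the list was below that of all genes in each class, at -0.23 in T, -0.17 in B and -0.24 in NK cells, -0.40 in monocytes and -0.14 in neutrophils. Past 2-fold were Ifi44 in T cells (-1.19) and Ifit1, Ifit2 and Ifi213 in monocytes (5.2 against 19.1, 9.3 against 19.3 and 25.4 against 50.9 CPM), with 1 gene each in NK cells and neutrophils. Both comparisons use the aged library, so opposite signs in them are not independent.

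Quiescence genes, a list of 16 that holds transcription factors of resting lymphocytes such as Klf2 and Foxo1, had medians below 0 in aged over young T cells (-0.26), B cells (-0.63), NK cells (-0.44) and monocytes (-0.77) and above 0 in neutrophils (0.40). The sign in neutrophils depended on the gate. The median was -0.70 in mature neutrophils (7 young cells), where 0 of 8 were higher and 3 lower by 2-fold (all genes -0.42). In immature neutrophils (5 young cells) it was 0.57, with 1 of 5 higher and 0 lower (all genes 0.07). Within nonclassical monocytes it was -0.23. In T cells 0 of 16 were higher and 2 lower by 2-fold, Tsc22d3 (324 and 776 CPM) and Pik3ip1 (51.0 and 109 CPM). Aged-GA over aged, none passed 2-fold in any of the 5 classes, and the medians were 0.15 in T, 0.23 in B and 0.29 in NK cells, 0.43 in monocytes and 0.33 in neutrophils. Tsc22d3 is also known as a gene that glucocorticoids induce.

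**Figure D4:**
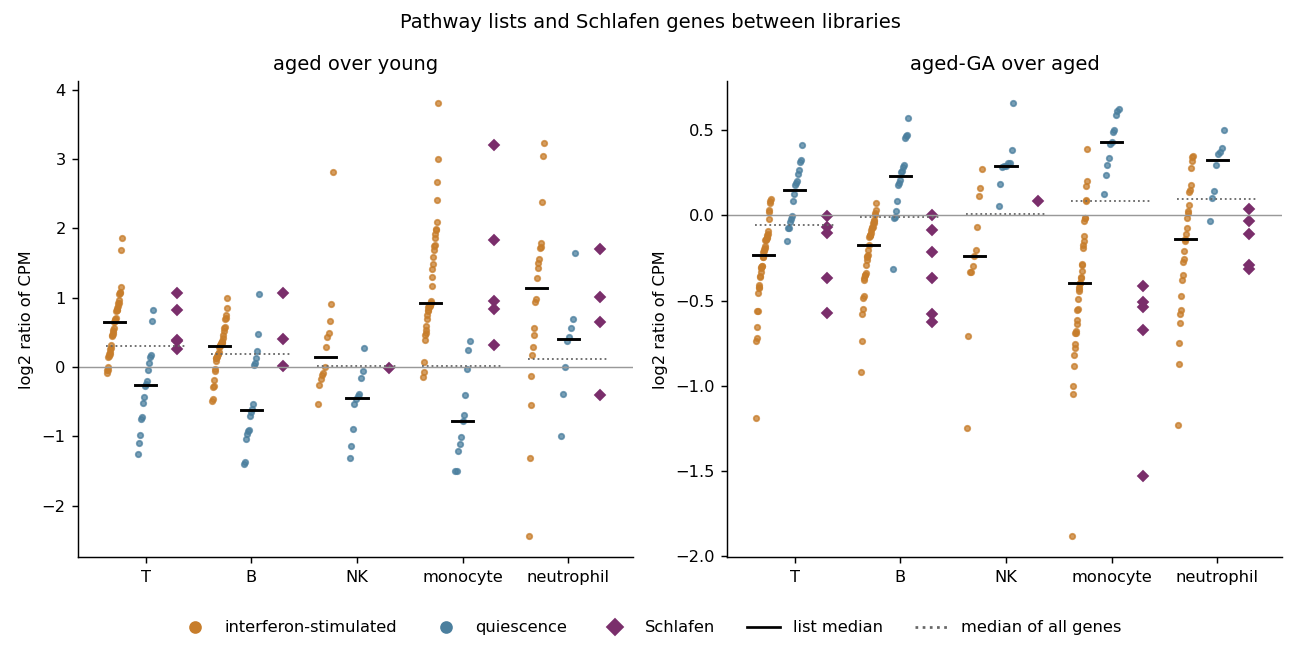
Log2 ratio of CPM (y axis) of single genes by class (x axis), for aged over young on the left and aged-GA over aged on the right, on separate scales; orange points are interferon-stimulated genes, blue points quiescence genes, purple diamonds Schlafen genes, black bars list medians and dotted lines the median of all genes. Orange medians lie above the dotted line on the left and below it on the right in all 5 classes, with 37 genes counted in T cells and 12 in NK cells on the left.

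The genes whose pattern was most like that of a member were sought by Pearson correlation of log2(CPM + 1) over the 15 levels of 5 classes in 3 libraries, among 4842 genes; the points share libraries and classes, so these are descriptions. Slfn2 was nearest to Ier3 (r = 0.995), Sgms2 (0.976) and Cd177 (0.963), the last a surface protein of neutrophils. Slfn4 was nearest to Adam8 (0.988), Lcn2 (0.984), a neutrophil granule protein, and Rab44 (0.983). Slfn1 was nearest to Fas (0.950), the death receptor, Igf1r (0.949) and Oas3 (0.918). Slfn5 was nearest to the interferon-stimulated genes Ifi27l2a (0.942) and Samhd1 (0.918), and to N4bp2l1 (0.916). Slfn9 was nearest to Sdf2, Capn2 and Cox5b (0.975, 0.967 and 0.959), and Slfn8, which varied little, had no neighbour above 0.794 (Vamp2). Between members the highest correlation was that of Slfn1 with Slfn2 (0.856), followed by Slfn2 with Slfn4 (0.845), while that of Slfn8 with Slfn9 was 0.344.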

How the data were processed

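The authors mapped reads with Cell Ranger (5.0.0 in the file headers; genome build mm10 per the submitters' processing notes) and deposited raw UMI counts per gene and barcode, without normalization. From these, barcodes of 200 or more genes, up to 90% of the largest gene number, and up to 7.5% mitochondrial UMIs were kept, following the methods of the study, and gated by markers. UMIs were summed per class and library, with exact Poisson intervals for levels and exact conditional binomial intervals for ratios; a count of 0 was set to 3 UMIs in a ratio, as a bound. A ratio was counted from 100 UMIs over both libraries and called at 2-fold (log2 ratio of 1). UMIs may not be independent across cells of one mouse, so intervals cover counting error only. Kept cells held 48249945, 53770440 and 75832322 UMIs. Red cell barcodes had under 200 genes and over 50% haemoglobin UMIs. Levels outside haemoglobin were set beside theirs after the data had been seen. Named genes are the members, the genes of the lists, the marker genes and, for each member of 100 or more gated UMIs, the 3 most correlated genes of at least 50 CPM in one class; Slfn5os was added afterwards. Members and lists were chosen with earlier results of these data known. Scrublet, as run in scanpy 1.11.5, called 437, 451 and 0 doublets, so it had not worked in the aged-GA library; doublets were kept, and leaving out the highest 5% of scores was an alternative. The ratios and intervals were tested on simulated data. Positions are from GENCODE vM21. Python 3.11.15, numpy 2.4.6 and scipy 1.17.1 were used. The other experiments of the study were not analysed here.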

Additional observations from a re-analysis of the deposited data

Results flagged for a closer look

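The same comparison gave opposite directions in separate classes for a pair of members, with counting intervals on either side of 0; the differences between classes were not tested. Slfn5, aged-GA over aged, had a log2 ratio of 0.69 (0.13 to 1.27; 85 and 40 UMIs) in naive CD4+ T cells, against -0.37 in B cells, -0.67 in monocytes and -0.30 in classical monocytes; in memory CD4+ T cells, which missed the minimum of UMIs, it was -0.82 (-1.44 to -0.20; 50 and 43 UMIs). Slfn2, aged over young, had 0.39 in T cells, 0.39 in naive CD4+ T cells and 0.32 in monocytes, against -1.40 (-1.93 to -0.82) in mature neutrophils, of which the young library held 7.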

How the results depend on the processing

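No paired analysis was possible because each group is 1 library. Of 480 recomputed ratios of a member in a class, 463 stayed within the counting interval of the reported value. Of the 480, 467 kept their side of 2-fold and 25 changed sign. Some of the 480 rest on the same UMIs as the reported value and could not move. These were all ratios without a minimum of UMIs, and those of T, B and NK cells without monocytes and neutrophils. Ratios outside monocytes with nonclassical monocytes alone were also of this kind. The counts that stayed therefore overstate stability. The 1 called value that turned was Slfn4 in monocytes, aged-GA over aged, at 0.13 when cells went to the class with most markers. Of the 6 Schlafen calls, aged over young, 3 were left when ratios were centred on the median gene and 2 without monocytes and neutrophils. Without a minimum of UMIs there were 17, of which 14 were higher and 3 lower. These 3 were Slfn3 in monocytes (19 aged UMIs) and Slfn3 and Slfn9 in neutrophils (1 and 3 aged UMIs). Each had 0 UMIs in the young library, and the negative sign came from setting that 0 to 3 UMIs, so none shows a fall with age. The same rule for 0 applied to every count without a minimum below. The 1 call in aged-GA over aged became 0 with no marker of another class, with the class of most markers, without monocytes and neutrophils and with nonclassical monocytes alone, and 4 without a minimum. Interferon-stimulated genes past 2-fold, 36 in aged over young (34 higher, 2 lower), were 59 without a minimum (43 higher, 16 lower), 7 without monocytes and neutrophils and 20 with nonclassical monocytes alone; the 6 in aged-GA over aged were 1 with no marker of another class, 3 with a pseudocount of 1 CPM, 16 without a minimum, 2 without monocytes and neutrophils and 3 with nonclassical monocytes alone. Quiescence genes past 2-fold, 15 in aged over young, were 28 without a minimum and 8 without monocytes and neutrophils, and 0 in aged-GA over aged became 2 without a minimum and 10 with the class of most markers. Members with the same highest class in 3 libraries, 3 as reported, were 6 with nonclassical monocytes alone. Other alternatives, among them doublets left out, the mitochondrial limit and 500 genes per cell, kept these counts within 1.5 times. Except where fewer genes or classes were counted, the cause was not tested.

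The gates left out 883, 1611 and 2485 kept cells. Depth limits the 12 neutrophils and 57 monocytes of the young library most.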

Other observations

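Cells that the gates left out also held Schlafen UMIs. Whether these came from single cells, doublets or free RNA was not tested. In the aged library 378 kept cells, and in the aged-GA library 158, had at least 2 markers of both monocytes and neutrophils. Their median depth was 10355.5 and 12124 UMIs, above that of the gated monocytes of the aged library. Slfn2 was at 488 CPM in these cells of the aged and 352 of the aged-GA library, Slfn1 at 242 and 219, Slfn5 at 273 and 180, and Slfn4 at 101 and 133 CPM. The Slfn4 level lay between those of gated monocytes and gated neutrophils in both libraries. A further 430 aged and 1053 aged-GA cells had under 2 markers of each class, and haemoglobin took 68.0 and 89.9% of their UMIs. Slfn2 was at 61.7 and 8.9 CPM in them.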
